A study of Homo sapiens with 3 samples.

Results

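MicroRNA and snoRNA host genes were followed in senescent human lung fibroblasts. The set held every gene of the platform annotation that a probe set names alone and whose symbol is SNHG with a number, or begins with MIR and ends in HG, together with GAS5, MALAT1 and MEG3. It comprised 50 of 19775 named genes and 94 probe sets. NEAT1 belonged to the rule as well, but 0 probe sets named it alone and 9 named it with another gene. It is therefore not among the genes described here. Of the 50 genes, 36 were microRNA hosts, 12 were snoRNA hosts and 2, MALAT1 and MEG3, were long nuclear RNAs.

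The cells were IMR-90 ER:Ras, a derivative of an established line of normal lung fibroblasts that carries an oncogenic Ras fused to estrogen receptor sequence, which makes it inducible. The groups were oncogene-induced senescence (OIS), reached with 100 nM of the inducer 4-hydroxytamoxifen (4-OHT) for 6 days, replicative senescence (RS), reached by repeated passage for 10 weeks, and growing cells without treatment. All 3 groups carry the fusion, and no untagged cells or 4-OHT control were analysed here. Each group had 1 array, so no difference has a replicate check and no p-value is given.

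A host gene is a transcription unit whose introns or exons contain small RNAs. The snoRNAs, which guide chemical modification of ribosomal RNA, are cut from the introns of SNHG transcripts, and many spliced SNHG RNAs are then degraded by nonsense-mediated decay in the cytoplasm. MicroRNAs are cut from the primary transcripts of MIR host genes by Drosha and then by Dicer, and bind targets mainly through the seed. The arrays read the long transcript of a host, not the small RNA.

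By position in RefSeq (GRCh38.p14), 27 microRNA hairpin genes lay inside the measured hosts, and the table of mature sequences held 43 different ones with 40 different seeds. The sequences shown belong to the hosts called at 2-fold against growing cells, to MIR31HG, itself a senescence-related RNA, and to MIRLET7BHG, whose let-7b shares its seed with let-7a, with the seed (bases 2 to 8) in capitals. MIR210HG holds the hypoxia-induced miR-210, MIR100HG holds miR-100, a let-7a copy and miR-125b, and MEG3 holds miR-770.
hsa-miR-210-3p: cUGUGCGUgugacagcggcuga
hsa-miR-100-5p: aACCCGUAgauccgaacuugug
hsa-miR-125b-5p: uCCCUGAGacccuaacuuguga
hsa-let-7a-5p: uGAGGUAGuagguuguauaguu
hsa-let-7b-5p: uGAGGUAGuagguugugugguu
hsa-miR-31-5p: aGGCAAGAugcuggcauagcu
hsa-miR-770-5p: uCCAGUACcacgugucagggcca
hsa-miR-3936: uAAGGGGUguauggcagaugca
The seed GAGGUAG was the only 1 found in more than 1 measured host: let-7a lies in both MIR100HG and MIRLET7BHG, and let-7b in MIRLET7BHG. Inside MIR181A2HG, miR-181a-5p and miR-181b-5p share the seed ACAUUCA.

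A gene was read by its brightest probe set and counted as measured when its signal exceeded a floor of 45.5 on at least 1 array, the median of all signals on the 3 arrays. Signals below the floor were raised to it before ratios were taken, and "at least" marks a fold whose dimmer array was at or below it. The measured members were 27 of 50, made up of 16 microRNA hosts, 9 snoRNA hosts and both long nuclear RNAs. Because members that passed only through the group where they were high had to differ, counts over them are descriptions. Just inside the floor were SNHG4, whose highest signal was 48.1, and MIR570HG at 55.9, and the highest signal of a member outside it was 35.2. Signals of different probe sets are not on 1 scale, so levels are compared only within a gene. The error of a probe set, from 6759 genes with a second probe set above the floor, was an SD of 0.36 log2 units for a ratio of OIS to growing cells, 0.33 for one of RS to growing cells and 0.37 for one of OIS to RS. It leaves out differences between cultures.

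Of the 27 measured members, 22 were called at 2-fold in neither senescent state. Of these 15 had both ratios measured above the floor and were within 2-fold of growing cells. The other 7 had a ratio that is only a lower bound, so a larger difference is not excluded for them. In OIS 1 member, MIR210HG, was at least 2-fold higher than in growing cells, and 3, MALAT1, MIR100HG and MIR3936HG, were at least 2-fold lower, against 4.92% of all 13466 measured genes higher and 6.63% lower. In RS 2 members, MEG3 and MIR210HG, were past 2-fold upward and 0 downward, against 3.72% of all measured genes higher and 5.58% lower. The members' counts are near these shares, so they are no result about the members as a class. Among 819 other measured long noncoding RNA genes, 2.56% were higher and 5.62% lower in OIS, and 2.93% were higher and 2.69% lower in RS. The median log2 ratio of the members was -0.12 for OIS and 0.11 for RS, against 0.00 for all measured genes in each.

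**Figure D1:**
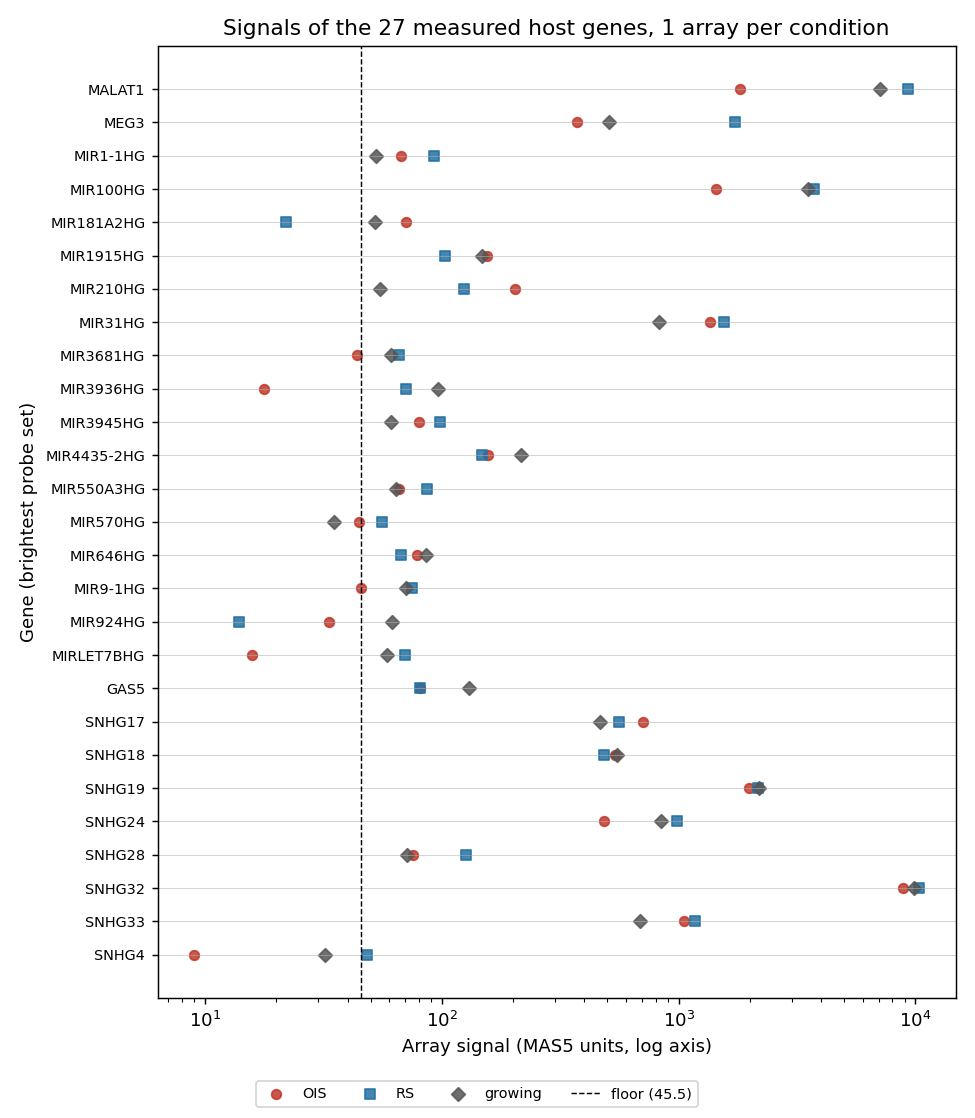
Signals of the 27 measured host genes on the OIS, RS and growing arrays, in MAS5 units on a log axis, with the floor of 45.5 as a dashed line. Points are comparable within a row, and MALAT1, MEG3, MIR100HG and MIR210HG show the widest gaps among genes above the floor on all 3 arrays.

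MALAT1, an abundant RNA retained in nuclear speckles, where splicing factors gather, was lowest in OIS and highest in RS. Its brightest probe set had a signal of 1815 in OIS and 9343 in RS, against 7092 in growing cells. The OIS array was thus well below the others, 3.91-fold lower than growing cells, whereas RS was 1.32-fold higher. OIS was 5.15-fold lower than RS. The size of each difference depended on the probe set. All 12 probe sets of MALAT1 exceeded the floor on some array. In OIS 11 of them were lower than in growing cells and 7 at least 2-fold lower, with log2 ratios between -2.03 and 0.10 and a median of -1.05. In RS all 12 were higher than in growing cells and 6 at least 2-fold higher, with log2 ratios between 0.19 and 1.65 and a median of 0.95. All 12 were lower in OIS than in RS, 11 of them at least 2-fold, with a median of -2.04.

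Of the MALAT1 probe sets, 11 have names ending in _s_at or _x_at, which can hybridize to several transcripts. The remaining 1 had a signal of 1737 in OIS and 7531 in RS, against 3206 in growing cells. By that probe set OIS was 1.85-fold lower than growing cells, so the 2-fold call ended, and RS was 2.35-fold higher, which the brightest probe set did not show. The order of the arrays, OIS below growing cells and growing cells below RS, was the same by both. Probe sets of a gene share the RNA and the array and are not replicates of the condition.

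MEG3, an imprinted RNA expressed from the maternal copy that is linked to p53 activity, was highest in RS. Its brightest probe set had a signal of 373 in OIS and 1730 in RS, against 509 in growing cells. RS stood apart, 3.40-fold above growing cells, and OIS was 1.37-fold lower than growing cells. The other 3 of its 10 probe sets were below the floor on every array, and 7 were above it. All 7 were higher in RS than in growing cells, 4 of them at least 2-fold, with log2 ratios between 0.23 and 1.77 and a median of 1.15. All 7 were lower in OIS than in RS, 6 of them at least 2-fold. For OIS over growing cells 6 of 7 were lower and 1 at least 2-fold lower, with a median of -0.29. The 4 of these that do not end in _s_at or _x_at gave a median log2 ratio of 1.06 for RS over growing cells, and 2 of the 4 passed 2-fold. With the median of all 10 probe sets, the dim ones included, the log2 ratio of RS over growing cells was 0.72.

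**Figure D2:**
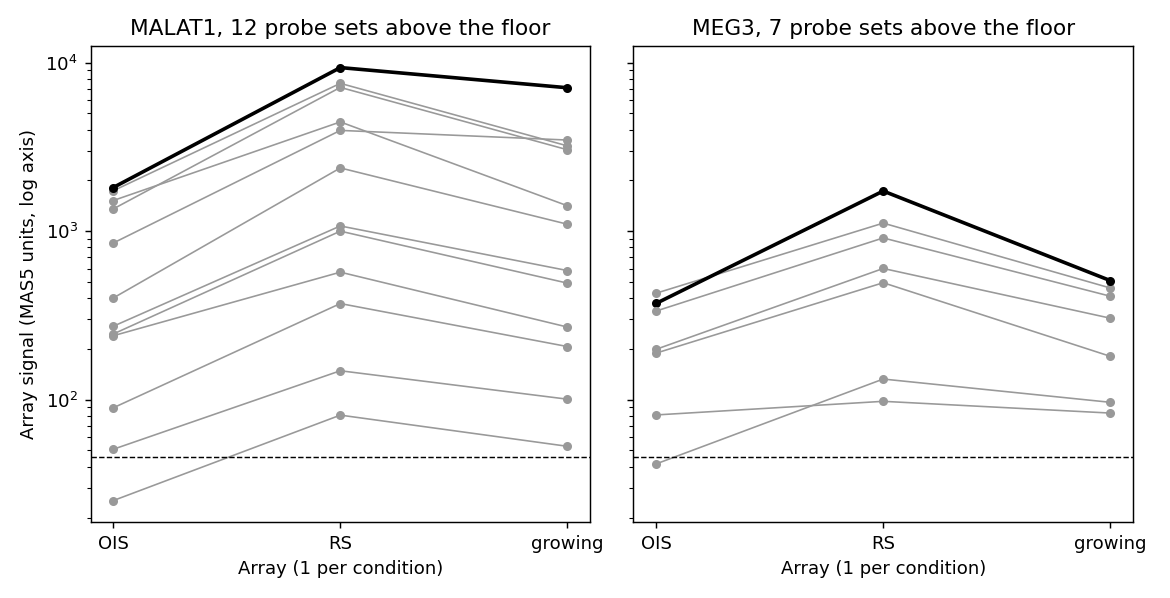
Signals of the MALAT1 and MEG3 probe sets above the floor on the OIS, RS and growing arrays, 1 line per probe set, in MAS5 units on a log axis. The thick line is the brightest probe set and the dashed line the floor of 45.5. Every line is higher in RS than in OIS.

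The 3 measured genes listed for the imprinted region around MEG3 were near the floor. MEG9, a maternally expressed RNA of that region, had a signal of 40.5 in OIS and 102 in RS, against 55.3 in growing cells. DLK1, a Notch-related protein made from the paternal copy, had 100.3 in OIS and 18.2 in RS, against 66.5 in growing cells. MEG9 was at least 2.24-fold lower and DLK1 at least 2.20-fold higher in OIS than in RS, and neither passed 2-fold against growing cells. DIO3, a deiodinase of the same region, was above the floor only in RS, at 51.7. In all, 3 of the 5 listed neighbours were measured.

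The first MEG3 start in RefSeq (GRCh38.p14) is shown with the bases around it, 250 before and 50 from the start on, because MEG3 had the largest rise in RS. Capitals mark matches on either strand to TGACGTCA, the cAMP response element, and to TATAAA, the TATA box, which do not overlap.
MEG3, chr14:100825858-100826157, plus strand: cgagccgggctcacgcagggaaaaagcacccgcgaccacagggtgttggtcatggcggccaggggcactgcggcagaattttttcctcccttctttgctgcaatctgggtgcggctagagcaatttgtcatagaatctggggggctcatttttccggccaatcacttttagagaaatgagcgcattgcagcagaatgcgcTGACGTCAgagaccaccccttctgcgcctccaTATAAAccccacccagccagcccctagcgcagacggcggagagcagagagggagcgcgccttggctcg
The response element began 50 bases before the start and the TATA match 18 bases before it. TGACGTCA occurred in 1.85% of all 35116 promoter windows of this length and TATAAA in 11.5%. Of the 23 measured members with a window, MEG3 and MIR9-1HG held TGACGTCA, and MALAT1, MEG3, MIR100HG and SNHG19 held TATAAA. Here and below, a member was counted if any of its windows matched, and the 23 members had 32 windows. The percentages are shares of windows, not of genes. A match describes these letters only.

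MIR210HG, the host of the hypoxia-induced microRNA whose sequence is given above, was higher in both senescent states. Its signal was 203 in OIS and 125 in RS, against 54.9 in growing cells. OIS was highest and growing cells lowest, 3.70-fold apart, and RS was 2.27-fold above growing cells. The growing signal was close to the floor, and the second probe set, at 87.2 in OIS and 51.4 in RS against a value below the floor in growing cells, kept this order. With the floor at 88.8, the log2 ratio was 1.19 for OIS and 0.49 for RS, so only the OIS call remained, and by the median of both probe sets the RS log2 ratio was 0.68. Neighbours in RefSeq order did not share the pattern. RASSF7, the nearest measured neighbour and a Ras association domain protein, had 306 in OIS and 504 in RS, against 337 in growing cells, and PHRF1 had 358 and 336, against 331 in growing cells.

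The bases around the MIR210HG start are shown because hypoxia response elements, with the core ACGTG, are known to bind HIF, and capitals mark the match on either strand.
MIR210HG, chr11:568408-568707, minus strand: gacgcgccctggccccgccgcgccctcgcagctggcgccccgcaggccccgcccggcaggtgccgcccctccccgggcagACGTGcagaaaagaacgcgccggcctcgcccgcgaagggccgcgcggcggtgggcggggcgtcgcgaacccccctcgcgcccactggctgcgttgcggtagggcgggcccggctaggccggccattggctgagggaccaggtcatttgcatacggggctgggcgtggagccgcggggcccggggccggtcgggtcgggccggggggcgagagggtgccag
The window held 1 match, beginning 170 bases before the start. The core occurred in 21.4% of all promoter windows and in those of 4 of the 23 measured members, MIR100HG, MIR210HG, MIR550A3HG and MIRLET7BHG, so it is common. CACGTG, the E-box bound by MYC, which contains the ACGTG core, occurred in 7.26% of all windows and in 0 of the 23 members. TGANTCA, the AP-1 site, occurred in 7.71% of all windows and in 1 member, MIR4435-2HG. Both strands were searched for each.

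MIR100HG, whose transcript contains miR-100, let-7a and miR-125b, was lower in OIS alone among the 3 arrays. Its signal was 1437 in OIS and 3726 in RS, against 3516 in growing cells. RS and growing cells were close, 1.06-fold apart, and OIS was 2.45-fold below growing cells and 2.59-fold below RS. The only other probe set of the gene was below the floor on every array, so the difference rests on 1 probe set. MIRLET7BHG, the other host with the let-7 seed, had 15.8 in OIS and 69.6 in RS, against 58.6 in growing cells. It too was lowest in OIS, but near the floor, and the difference from growing cells was at least 1.29-fold. UBASH3B, a phosphatase and the nearest measured neighbour of MIR100HG in RefSeq order, had 3403 in OIS and 2673 in RS, against 2255 in growing cells, in the other direction. SORL1, a sorting receptor and the next measured neighbour, had 87.5 in OIS and 183 in RS, against 211 in growing cells, and was lowest in OIS like MIR100HG.

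MIR31HG, which holds miR-31 and is a long RNA reported to restrain CDKN2A in fibroblasts, was higher in both senescent states by less than 2-fold. Its signal was 1358 in OIS and 1560 in RS, against 826 in growing cells. Both senescent arrays were above the growing array, by 1.64-fold in OIS and 1.89-fold in RS. The log2 ratios of 0.72 and 0.92 were larger than the probe set SD, with a single probe set read. IFNE, an interferon gene that overlaps MIR31HG in RefSeq, had 130 in OIS and 155 in RS, against 45.8 in growing cells. IFNE was 2.83-fold higher in OIS and 3.39-fold higher in RS, but its growing signal was barely above the floor of 45.5. Whether its probe set and that of MIR31HG read separate transcripts was not tested. MTAP, a methionine salvage enzyme on the same chromosome arm, had 851 in OIS and 436 in RS, against 482 in growing cells. KLHL9, a nearer measured neighbour, had 3292 in OIS and 3603 in RS, against 3756 in growing cells. IFNA17, also nearer than MTAP, was above the floor only in growing cells.

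MIR3936HG was called lower in OIS from a signal below the floor. Its signal was 17.7 in OIS and 70.3 in RS, against 96.6 in growing cells. OIS was at least 2.12-fold lower than growing cells, and with the floor at 88.8 the log2 ratio was -0.12. It overlaps the carnitine transporter genes SLC22A4 and SLC22A5. SLC22A4 had 1396 in OIS and 1004 in RS, against 720 in growing cells, and was highest in OIS, where MIR3936HG was lowest. SLC22A5 had 199 in OIS and 346 in RS, against 223 in growing cells, and was lowest in OIS like MIR3936HG.

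The other 12 measured microRNA hosts were not called at 2-fold against growing cells in either state, with signals of at most 215 on any array. For those with an array at or below the floor the call rests on a bound. With the floor at 11.7, the log2 ratio to growing cells was -1.89 for MIRLET7BHG in OIS, -2.15 for MIR924HG in RS and -1.25 for MIR181A2HG in RS. MIR4435-2HG, which is highly similar to the CYTOR locus, had 157 in OIS and 147 in RS, against 215 in growing cells. It was 1.37-fold lower in OIS and 1.46-fold lower in RS. MIR1-1HG, the host of the muscle microRNAs miR-1 and miR-133a, had 67.1 in OIS and 93.0 in RS, against 52.6 in growing cells, which is 1.77-fold higher in RS. MIR3945HG had 79.8 in OIS and 98.0 in RS, against 61.0 in growing cells. It was highest in RS, like MIR1-1HG.

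MIR1915HG had probe sets that disagreed. The brightest gave 155 in OIS and 103 in RS, against 148 in growing cells, so that OIS was level with growing cells. Another gave 48.6 in OIS and 70.2 in RS, against 114 in growing cells, and was 2.34-fold lower in OIS. MIR181A2HG, the host of miR-181a and miR-181b, had 70.7 in OIS and 21.9 in RS, against 52.0 in growing cells. It was at least 1.55-fold higher in OIS than in RS. MIR9-1HG, the host of the brain microRNA miR-9, had 45.5 in OIS and 74.5 in RS, against 70.9 in growing cells, and was at the floor in OIS. MIR924HG had 33.5 in OIS and 13.9 in RS, against 61.7 in growing cells, and was above the floor only in growing cells. MIR646HG had 78.6 in OIS and 66.9 in RS, against 85.5 in growing cells. MIR550A3HG had 66.0 in OIS and 86.6 in RS, against 64.0 in growing cells. All 3 arrays were above the floor for both genes, and none of their ratios passed 2-fold. MIR3681HG had 43.8 in OIS and 65.9 in RS, against 61.0 in growing cells. MIR570HG had 44.7 in OIS and 55.9 in RS, against 34.9 in growing cells, and was above the floor only in RS.

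No measured snoRNA host was called at 2-fold against growing cells. Over the platform, 26 host names of either kind occur only in probe sets that also name the RNAs inside them, SNHG1, SNHG5, SNHG6, SNHG8, SNHG12 and SNHG16 among them, and are not among the genes described here. Of the 9 measured, 0 were at least 2-fold higher or lower than growing cells in either senescent state, and the median log2 ratio was -0.03 in OIS and 0.08 in RS. SNHG32, which holds SNORD48 and SNORD52, had 8836 in OIS and 10386 in RS, against 9869 in growing cells. SNHG19, which holds SNORD60, had 1987 in OIS and 2172 in RS, against 2191 in growing cells. SNHG18, which holds SNORD123, had 538 in OIS and 486 in RS, against 551 in growing cells. For these genes the arrays were within 1.18-fold of each other, which is less than the probe set SD.

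SNHG33 and SNHG17 were higher in both senescent states by less than 2-fold. SNHG33, with SNORA63 copies inside it, had 1051 in OIS and 1178 in RS, against 684 in growing cells, and was 1.54-fold higher in OIS and 1.72-fold higher in RS. Its second probe set gave log2 ratios of 0.47 in OIS and 0.64 in RS. SNHG17, which holds SNORA71 copies, had 709 in OIS and 560 in RS, against 467 in growing cells. Its second probe set also placed OIS first and growing cells last.

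SNHG24, with no gene identifier in RefSeq and so no position here, had 485 in OIS and 981 in RS, against 842 in growing cells. It was lowest in OIS, 1.73-fold below growing cells and 2.02-fold below RS, the second of these only just past 2-fold. SNHG28 had 75.3 in OIS and 126 in RS, against 71.2 in growing cells, 1.77-fold higher in RS. GAS5, which holds 11 snoRNAs and is named for its accumulation in growth-arrested cells, had 81.1 in OIS and 80.7 in RS, against 130 in growing cells. By this probe set it was 1.60-fold lower in OIS and 1.61-fold lower in RS. Further probe sets name GAS5 together with its snoRNAs and are not used here, so the value rests on 1 dim probe set. SNHG4 had 9.0 in OIS and 48.1 in RS, against 32.1 in growing cells, and was above the floor only in RS. Its ratios are bounds, and with the floor at 11.7 the log2 ratio of OIS to growing cells was -1.46.

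Transcripts that start with C and a run of pyrimidines, the terminal oligopyrimidine tract, are translated together with ribosomal protein mRNAs, and this start is known for snoRNA hosts. Of the 8 measured snoRNA hosts with a start in RefSeq (GRCh38.p14), 4 began with C and at least 4 further pyrimidines, as did 4.07% of all promoter windows and 0 of the other measured members. The first 20 transcribed bases of these 4 are shown with the tract in capitals.
SNHG18, chr5:9546200-9546219, plus strand: CTCCTCCTCCTCCTCCTCCC
SNHG4, chr5:139274101-139274120, plus strand: CCCTTTCCCCTCCggcctct
SNHG19, chr16:2155339-2155358, minus strand: CTTTTCggggtcgagtccga
SNHG32, chr6:31834916-31834935, plus strand: CTTTTTgcgaagtgggctcg
The 3 hosts of this group that were above the floor on all arrays were SNHG18, SNHG19 and SNHG32. By the larger of its 2 ratios, each was closer to growing cells than any other member above the floor on all arrays. In OIS alone this did not hold. MIR550A3HG, MIR1915HG, SNHG28 and MIR646HG, at 1.03-fold, 1.05-fold, 1.06-fold and 1.09-fold, were closer than SNHG19 and SNHG32, at 1.10-fold and 1.12-fold. Nor did it hold in RS alone, where MIR100HG, at 1.06-fold, was closer than SNHG18, at 1.13-fold. Whether the tract bears on the ratios was not tested.

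**Figure D3:**
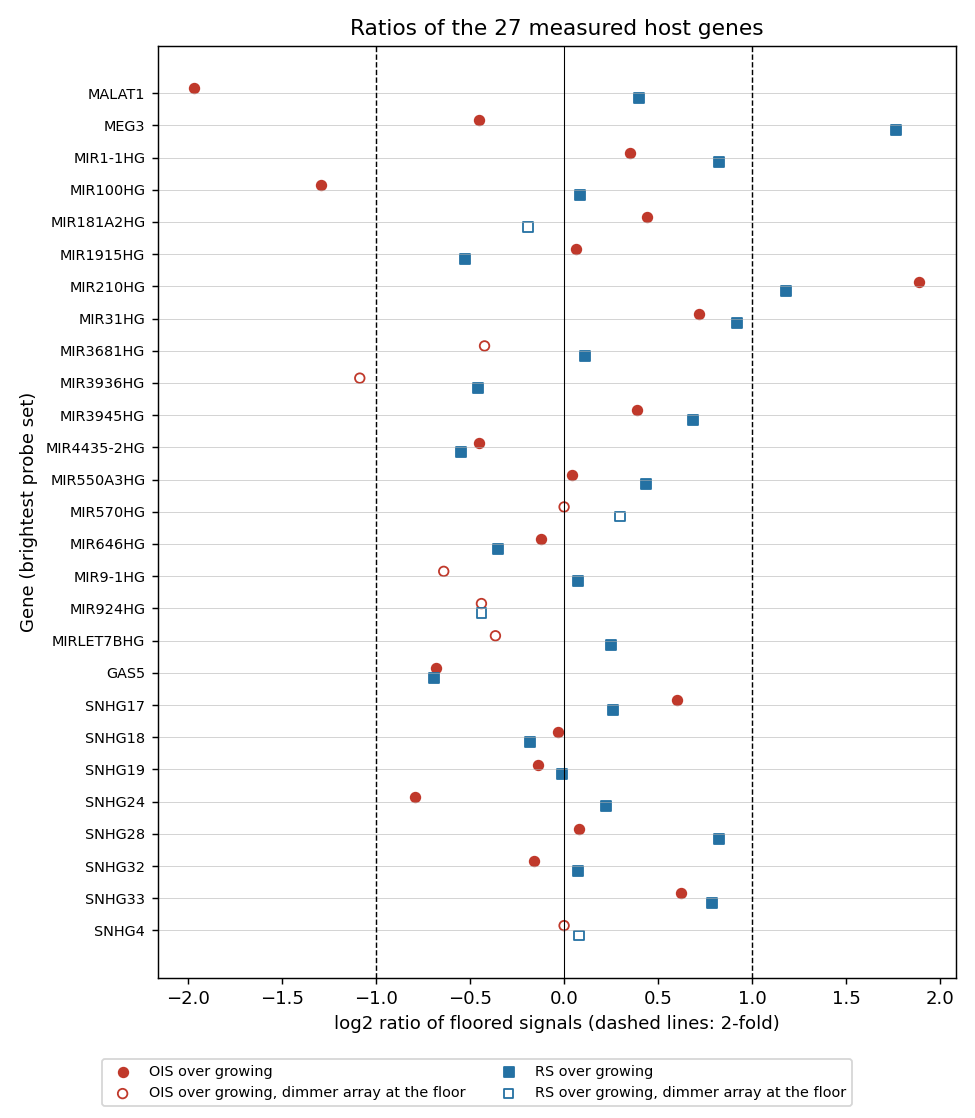
Log2 ratios of floored signals for the 27 measured host genes, OIS over growing cells as circles and RS over growing cells as squares, open where the dimmer array was at or below the floor. Dashed lines mark 2-fold: MALAT1, MIR100HG and MIR3936HG lie left of it in OIS, MIR210HG right of it in both states, and MEG3 right of it in RS.

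OIS and RS were also set against each other. Of the 27 measured members 18 had a log2 ratio of OIS to RS below 0, against 6473 of all 13466 measured genes and 413 of the 819 other long noncoding RNA genes. Of the members 4 were at least 2-fold lower in OIS than in RS and 0 were at least 2-fold higher, against 5.27% of all measured genes lower and 5.48% higher. Among other long noncoding RNA genes 4.76% were lower and 3.17% higher. The 4 were MALAT1, MEG3, MIR100HG and SNHG24, all above the floor on both arrays. The median log2 ratio of OIS over RS was -0.23 for the members and 0.00 for all measured genes. This comparison uses the same OIS and RS arrays as those above.

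The members below the floor on all arrays numbered 23, 20 microRNA hosts and 3 snoRNA hosts, with brightest probe set signals between 0.5 and 35.2. Among them were MIR17HG, the host of the MYC-induced microRNA cluster, by its only probe set named alone, MIR34BHG, the host of a p53-induced microRNA pair, MIR99AHG, MIR205HG, MIR200CHG and SNHG10. The others were MIR124-2HG, MIR133A1HG, MIR2052HG, MIR3663HG, MIR3667HG, MIR3976HG, MIR4290HG, MIR4300HG, MIR4307HG, MIR4500HG, MIR548XHG, MIR663AHG, MIR670HG, MIR7-3HG, MIR9-3HG, SNHG22 and SNHG27. At this signal no difference was detectable.

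Proteins that process or work with snoRNAs and microRNAs, nonsense-mediated decay factors and paraspeckle proteins were counted in the same way. Of all measured genes, 4.92% were higher and 6.63% lower in OIS, and 3.72% were higher and 5.58% lower in RS. Lists of this size would hold about 0 or 1 such gene at those shares, so the counts are no result about the lists. Of 10 measured box C/D snoRNP proteins and assembly factors 0 passed 2-fold in OIS, and in RS 1 was lower and 0 higher. That was FBL, fibrillarin, the methyltransferase of box C/D particles, at 3569 in OIS and 2692 in RS, against 5833 in growing cells, 2.17-fold lower in RS. The list median was -0.27 in OIS and -0.28 in RS. Of 5 measured box H/ACA proteins, 13 microRNA processing and effector proteins, 10 nonsense-mediated decay factors and 11 paraspeckle proteins, 0 passed 2-fold in either state against growing cells. Their medians were -0.18, -0.08, -0.08 and -0.36 in OIS and -0.20, -0.23, -0.04 and -0.44 in RS. AGO2, an Argonaute protein that holds microRNAs, had 1567 in OIS and 677 in RS, against 889 in growing cells, and was 2.32-fold higher in OIS than in RS.

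Protein-coding hosts are read against the same shares. Of 14 measured snoRNA hosts of this kind 1 was at least 2-fold lower in OIS and 1 at least 2-fold higher in RS, and the medians were 0.02 and 0.01. RCC1, a nuclear exchange factor for Ran, was 2.31-fold lower in OIS, and TAF1D, a subunit of an RNA polymerase I factor, was 2.02-fold higher in RS. Of 27 measured protein-coding microRNA hosts 1 was higher and 3 lower in each state, with medians of 0.04 in OIS and -0.03 in RS. The 3 were MCM7, a replication helicase subunit, SMC4, a condensin subunit, and SLIT2, a secreted guidance protein. SMC4 had 1588 in OIS and 1654 in RS, against 7511 in growing cells. SLIT2 had 296 in OIS and 195 in RS, against 913 in growing cells. AOPEP, an aminopeptidase, was the higher one, at 1694 in OIS and 2054 in RS, against 832 in growing cells.

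The arrays were alike in scale, with 49.9% of probe sets above the floor in OIS, 49.8% in RS and 50.3% in growing cells. All 10 fibroblast markers were above the floor on every array, with summed signals of 154651 in OIS, 170610 in RS and 162091 in growing cells. Within that list DCN was 2.59-fold lower in OIS than in growing cells. DCN and LUM were 2.97-fold and 2.22-fold lower in OIS than in RS, and FAP was 1.95-fold higher. The median log2 ratio of OIS over RS for the list was 0.05. Of 6 blood cell markers with a value 3 were above the floor in OIS, 3 in RS and 1 in growing cells, and PTPRC and LYZ on none. Of 8 epithelial markers 4, 4 and 5 were above it in OIS, RS and growing cells, CDH1, KRT5 and CLDN4 on none, with sums of 3268 in OIS, 6579 in RS and 3441 in growing cells. EPCAM was 3.20-fold lower in OIS than in growing cells, and KRT8 and KRT18 were 2.20-fold and 2.01-fold higher in RS. Of 7 endothelial markers 4 were above it on each array, CDH5, KDR and TIE1 on none, with sums of 2149 in OIS, 2240 in RS and 1481 in growing cells. In OIS 3 of the 4 endothelial markers above the floor exceeded growing cells by 2-fold or more. The part of these markers in the ratios of MALAT1 and MEG3 was not tested. In RNA of whole cultures, fewer cells that make a transcript and less of it per cell cannot be told apart.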

How the data were processed

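RNA of 3 cultures was measured on 1 array each, and groups were taken from the labels. Per the labels' protocols, labelled cRNA came from 250 ng of total RNA. What the authors deposited is 1 linear intensity for each probe set, computed by MAS5 according to the submitters' processing notes, which name no version. The 2% trimmed means were 497.2 in OIS, 497.2 in RS and 497.3 in growing cells, so a shift of all genes would have been removed. Of 54613 probe sets, 41091 name 1 gene, 1801 several and 11721 none, and only the first were used; 49 of the 50 members had a gene identifier in RefSeq. The members and lists were chosen with earlier results of these data known. Log2 ratios of floored signals were taken, genes at or past 2-fold were counted, and with 1 array per condition no test was made. Each measured member is described, and of a list the members past 2-fold against growing cells with the 2 highest and 2 lowest ratios. The nearest measured neighbours were taken by position, but only some of them are named, and those are not always the nearest. MCM7 and AGO2 were named after their values were seen. The steps were tested on simulated data, with changes of 3-fold or more placed in genes well above the floor. That test does not cover signals near the floor or calls near 2-fold. Alternatives were quantile normalization, centring, floors at the 25th (11.7) and 60th percentile (88.8), a pseudocount of 16, other filters, the median of probe sets, leaving out _s_at and _x_at sets, and 3-fold. Sequences are RefSeq's, GRCh38.p14. Python 3.11.15, numpy 2.4.6, pandas 2.3.3 and matplotlib 3.10.9 were used.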

Additional observations from a re-analysis of the deposited data

Results flagged for a closer look

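By their brightest probe sets MALAT1 and MEG3 were both lower in OIS and higher in RS than growing cells. The log2 ratios of MEG3 in OIS, -0.45, and of MALAT1 in RS, 0.40, were within 2-fold. In OIS 1 probe set of each gene was higher than in growing cells. The log2 ratio of OIS over RS was -2.36 for MALAT1 and -2.22 for MEG3. Each side was 1 array, and the difference was not tested.

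Probe sets outside the measurement, those that name a host together with the microRNAs or snoRNAs inside it, were counted as well. Of 58 such probe sets 46 were above the floor. In RS 10 of them were at least 2-fold higher than in growing cells (21.7%) and 2 lower (4.35%). In OIS 1 was higher and 0 lower. Of all measured genes 3.72% were higher and 5.58% lower in RS, and 4.92% higher and 6.63% lower in OIS. Between OIS and RS, 11 were at least 2-fold lower in OIS (23.9%) and 1 higher, against 5.27% and 5.48% of all measured genes. The former are shares of probe sets, several of which can name the same host, and the latter shares of genes, so they are unlike measures. Of the 10 higher in RS, 8 belong to 9 probe sets that share the same names and are not independent. So do 7 of the 11 that were lower in OIS than in RS. These counts thus rest largely on the probe sets of a single host, not on many hosts. NEAT1 is named with another gene by 9 probe sets, which may be the same ones, but the counts alone do not identify the host. The median log2 ratio of these 9 was 1.77 for RS and 0.54 for OIS. The other 37 had a median of 0.04 in RS and -0.14 in OIS.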

How the results depend on the processing

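With 1 array per condition no spread between cultures is known, and signals near the floor limit what can be seen. No called ratio changed sign under any alternative. Shares of all measured genes under the alternatives are not given here, so the counts below are descriptions and no result about the members. Quantile normalization and centring on the median of all measured genes left every count within 1.5 times and every median within 0.1. With the floor at the 25th percentile 44 members were measured: 5 were lower in OIS than in growing cells, with a median of -0.0163, 4 were higher and 2 lower in RS than in growing cells, and 3 were higher and 9 lower in OIS than in RS. With the floor at the 60th percentile 18 were measured and 1 was higher in RS than in growing cells. With a pseudocount of 16 and no floor, 1 was higher and 1 lower in RS than in growing cells, and 1 higher in OIS than in RS. Without a filter, with all 50 members, the median was 0 in each comparison, since members at the floor have a ratio of 0. Over the 19 members above the floor on all arrays, the median of RS over growing cells was 0.2622. With each gene read by the median over its probe sets, the median of OIS over growing cells was -0.0032 and 0 members were higher in RS. At 3-fold 1 was lower in OIS and 1 higher in RS than in growing cells, and 2 were lower in OIS than in RS. With the probe sets that name a host and the RNAs inside it, an alternative chosen after seeing the data, 51 genes were measured, 4 higher and 1 lower in RS than in growing cells. The 2-fold call of MIR100HG in OIS ended by the median of its 2 probe sets, at -0.65, that of SNHG24 in OIS over RS with the pseudocount, at -0.99, and that of MIR210HG in RS with the pseudocount, at 0.99. The calls of MALAT1 and MEG3 in OIS over RS and of MIR210HG in OIS over growing cells held in 9 of 9 alternatives. Several of the 9 could not alter them. Centring changed no ratio, because the median of all measured genes was 0 in each comparison. The other filters only choose which genes are counted. MIR210HG has no _s_at or _x_at set to leave out. No paired analysis was possible because each condition has 1 array.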
